A study of Mus musculus with 9 samples.

Results

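Insulin-like growth factor 1 (IGF-1), its receptor, the insulin receptor and the IGF-binding proteins were followed through 9 genes in mouse heart: Igf1, Igf1r, Insr and Igfbp2 to Igfbp7. The genes were taken by symbol through their mouse Ensembl IDs, and they are 9 of the 53465 genes in the count files. All 9 were among the 13825 genes that passed a filter on low counts and were tested. All mice were NOD-SCID, which lack mature T and B lymphocytes, so that immunodeficiency is shared by every group. Sham surgery gave 3 libraries, coronary artery ligation, which cuts the blood supply to part of the ventricle, gave another 3, and ligation followed by implanted FOXO3-GE-MPCs (here "the cell group") gave the last 3. Tissue of all groups, sham included, is labelled as border zone. Age, sex, the time after surgery and the species of the implanted cells are not given in the sources used here, and reads were not assigned to host or implanted cells. For replicates 2 and 3 of the cell group another label field names other FOXO members, while their titles and treatment fields name FOXO3, and the titles were followed.

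IGF-1 is a secreted growth factor made in liver and locally in many tissues, and it acts through the IGF-1 receptor, a tyrosine kinase closely related to the insulin receptor. Both receptors signal through insulin receptor substrates to phosphoinositide 3-kinase and Akt, which restrain FOXO transcription factors. IGF-binding proteins hold IGFs in the extracellular space, lengthen their life there and limit or aid their access to the receptor, and proteases free the IGFs by cutting them. In heart this pathway is known for its part in cardiomyocyte growth and survival and in glucose uptake.

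The libraries held 4549268 to 7515052 gene counts. Levels are given as CPM (each gene's share of its library's TMM-scaled total, where TMM factors even out differences in make-up), and 1 count was worth 0.125 to 0.213 CPM. Transcripts encoded by mitochondria took 19.1% to 19.9% of gene counts in sham, 12.5% to 13.9% in ligation and 14.3% in each cell library, so this share differed between sham and the ligated groups. With those genes left out before scaling, 8 of the 9 genes passed the test against sham after ligation (38.2% of all genes in that fit) and 9 in the cell group (41.1%), and 3 passed between these groups (9.91%; tests given below). The 8 cardiomyocyte markers were all detected and summed to between 45705 and 60816 CPM per library. In the file headers, sham replicates 1 and 2 share a name stem, as do ligation replicates 2 and 3. The mean chi-square per gene between replicates was 1.98 to 3.96, where sampling noise alone gives 1, and the pairs with a shared stem were at 3.96 in sham, the highest there, and 2.30 in ligation, the lowest there. No pair was a repeat within sampling noise, which does not show separate animals, and all 9 libraries entered the tests. Nothing states that they came from separate animals, and p-values then measure only the spread between these libraries.

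Among the binding-protein genes, Igfbp3, Igfbp4 and Igfbp5 passed the test as higher after ligation and as lower again in the cell group. The sequences just upstream of their RefSeq starts are shown for that reason. Each line gives the 250 bases before the start, 5′ to 3′ on the gene's strand, from RefSeq's GRCm38.p6 annotation. The windows are chr11:7213924-7214173 on the minus strand for Igfbp3, chr11:99040994-99041243 on the plus strand for Igfbp4 and chr1:72874866-72875115 on the minus strand for Igfbp5. Capitals mark AT-rich boxes, searched in the form TATAAA, in the form TATATA and in the form TTTAAA. A forkhead element, the letters GTAAACA bound by FOXO factors, and a GC box, the letters GGGCGG, were searched as well and are not in these windows.
Igfbp3: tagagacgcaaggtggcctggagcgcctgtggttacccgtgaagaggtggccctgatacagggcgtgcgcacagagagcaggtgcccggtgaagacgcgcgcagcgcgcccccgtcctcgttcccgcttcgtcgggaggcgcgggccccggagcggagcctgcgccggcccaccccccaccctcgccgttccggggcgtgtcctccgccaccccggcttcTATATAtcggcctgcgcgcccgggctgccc
Igfbp4: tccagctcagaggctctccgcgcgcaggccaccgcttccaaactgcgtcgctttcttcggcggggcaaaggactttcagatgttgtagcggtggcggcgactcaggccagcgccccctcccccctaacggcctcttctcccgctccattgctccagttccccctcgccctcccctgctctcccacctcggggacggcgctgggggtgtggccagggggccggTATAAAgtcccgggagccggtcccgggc
Igfbp5: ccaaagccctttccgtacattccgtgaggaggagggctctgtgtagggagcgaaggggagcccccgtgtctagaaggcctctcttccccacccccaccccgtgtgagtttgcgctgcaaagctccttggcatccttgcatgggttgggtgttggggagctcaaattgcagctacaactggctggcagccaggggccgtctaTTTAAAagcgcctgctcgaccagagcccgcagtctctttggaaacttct

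Each of these windows holds a single AT-rich box, beginning 30, 28 and 49 bases before the start in Igfbp3, Igfbp4 and Igfbp5. Among the other members in the table, Igfbp6 has one, TATAAA on the opposite strand, 148 to 143 bases before its start. Boxes of this kind lie near the start of many regulated genes as background knowledge, and the letter forms were picked after these sequences had been seen. At least 1 of the 3 forms lies on either strand within the last 50 bases of 6.73% of the 32851 RefSeq windows, and anywhere in 24.6%. A GC box, found in 32.7% of all windows on either strand, is in the windows of Igf1r and Igfbp7 and in 1 of the 2 windows of Igfbp2. The forkhead element, found in 3.17% of all windows on either strand, is in no window of the 8 members that the table lists. Searches covered both strands, the searched forms do not overlap in the printed windows, and a match is a description of letters only.

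The genes lie on 7 chromosomes (GENCODE M21 gene models, GRCm38), and all are protein coding. Igf1 is at chr10:87858265-87937042, Igf1r at chr7:67952827-68233668 and Insr at chr8:3122061-3279617. Igfbp2 (chr1:72824503-72852474) and Igfbp5 (chr1:72857932-72874884) are neighbours that converge, with 5457 bases between their ends. Igfbp3 (chr11:7206086-7213923) converges with Igfbp1 across 3539 bases. Igfbp4 is at chr11:99041244-99054392, Igfbp6 at chr15:102144362-102149511 and Igfbp7 at chr5:77349240-77408041. No exon base of the other 8 genes is shared with another gene, while 7.03% of Igfbp7's exon bases overlap Polr2b on the opposite strand, and whether the counting used strand is not given in the sources used here.

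Transcript levels can be compared between genes only per length, and were expressed as CPM per kb of annotated exon. In the sham libraries Igfbp7 stood far above the others at 346 ± 13.4 CPM per kb (SD, n = 3). Igfbp7 encodes a secreted protein that binds IGFs only weakly. Igfbp4 followed at 62.5 ± 2.20, Igfbp6 at 47.7 ± 1.56, Igfbp5 at 36.2 ± 2.25 and Igfbp3 at 22.1 ± 1.40 CPM per kb. Below these came Insr at 8.04 ± 0.169, Igf1 at 2.83 ± 0.439 and Igf1r at 2.30 ± 0.130, and lowest of the 9 was the binding-protein gene Igfbp2 at 0.182 ± 0.0913 CPM per kb. Only Igf1 (2.35 to 3.21) and Igf1r (2.17 to 2.43) had overlapping ranges among neighbours in this order.

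The order changed within the binding proteins after ligation. Igfbp6 moved up to 114 ± 1.35 CPM per kb and Igfbp5 to 93.1 ± 5.86, both above Igfbp4 at 82.0 ± 0.537. In the cell group Igfbp4 (70.0 ± 0.891 CPM per kb, SD, n = 3) was again above Igfbp5 (66.5 ± 1.63). No neighbours in the order overlapped in the ligation or the cell group. The place of Igfbp4 against Igfbp5 after ligation depends on the length used: with each gene's longest transcript as the length, Igfbp4 was at 94.5 ± 0.619 and Igfbp5 at 93.1 ± 5.86 CPM per kb.

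**Figure D1:**
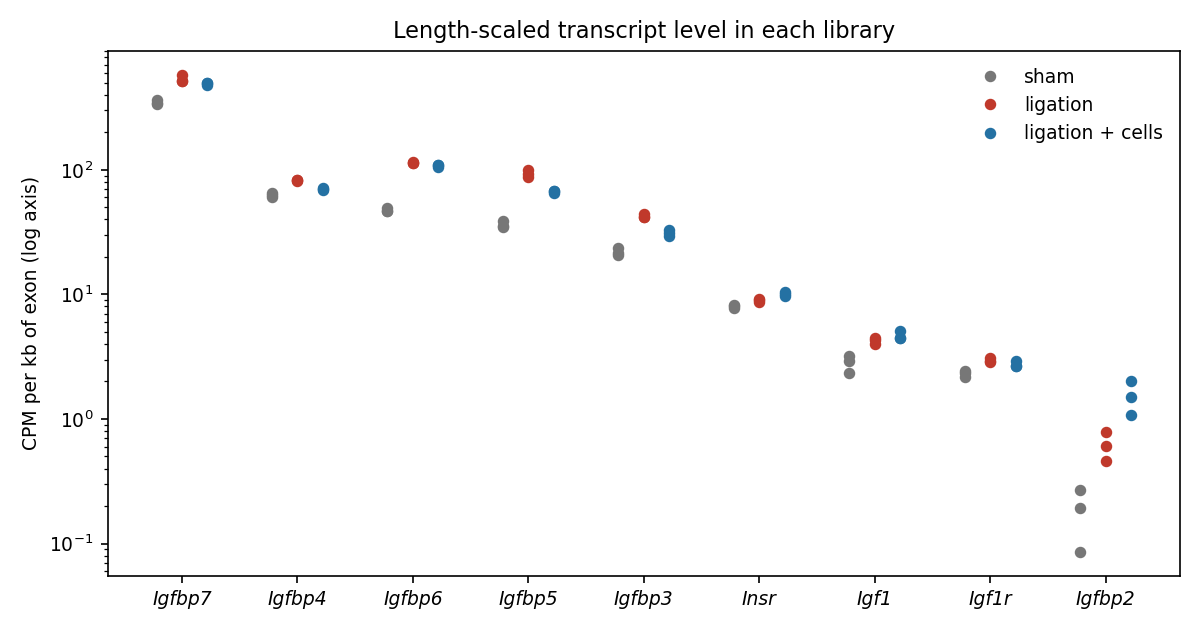
Transcript level of the 9 genes in CPM per kb of exon (log axis), 1 point per library, genes ordered by their sham mean. Igfbp7 is highest in all libraries (335 to 581 CPM per kb) and Igfbp2 lowest, and Igfbp5 lies above Igfbp4 only in the ligation libraries.

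The comparison of ligation with sham asked which transcripts differ after the vessel is tied. All 9 genes were higher in ligation with an adjusted p-value under 0.05 (edgeR's quasi-likelihood test, Benjamini-Hochberg over all 13825 genes), and none was lower. Igfbp2 could be tested only because the filter on low counts was passed through the cell libraries, its call was lost in 6 of 18 alternative fits, and it is left out of the summary that follows. Among the other 8 genes, of which 8 rose, the rises were largest in the binding proteins Igfbp5, Igfbp6 and Igfbp3, middling in Igfbp7, Igf1, Igfbp4 and Igf1r, and smallest in Insr. The Insr call was lost in 14 of 19 alternative fits. Across all tested genes 38.2% passed in this comparison, 20.1% as higher and 18.0% as lower. The median log2 fold change was 0.61 over the 8 genes and 0.01 over all tested genes. The ranges of the groups did not overlap for any of the 8, against 47.6% of all tested genes.

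Igf1, the ligand, stood at 29.0, 23.2 and 31.7 CPM in sham replicates 1 to 3, at 44.3, 43.0 and 39.6 in ligation and at 43.8, 50.4 and 44.1 in the cell group. Every ligation and cell library was above every sham library, while ligation and cell libraries overlapped. Igf1 rose by 0.59 on the log2 scale after ligation (SE 0.105, edgeR adjusted p 0.000141). In the cell group it was 0.13 above ligation (interval -0.07 to 0.33, edgeR adjusted p 0.473), which is not past the threshold and ran from 0.06 to 0.17 with single libraries left out, and 0.72 above sham (edgeR adjusted p 1.02e-05). In bulk tissue, a change in the number of cells that make a transcript and a change in its amount per cell cannot be told apart, here or below.

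Igf1r, the receptor for IGF-1, stood at 40.8, 36.4 and 38.9 CPM in sham, at 49.4, 51.7 and 48.3 in ligation and at 44.5, 44.8 and 49.1 in the cell group. Sham libraries lay below all others, and 1 cell library reached into the ligation range. The rise after ligation was 0.36 on the log2 scale (SE 0.0795, edgeR adjusted p 0.00103). The cell group differed from ligation by -0.11 (interval -0.27 to 0.05, edgeR adjusted p 0.438) and from sham by 0.26 (edgeR adjusted p 0.0137). That last call was lost without sham replicate 2 (0.21, edgeR adjusted p 0.0775), without cell replicate 3 (0.21, edgeR adjusted p 0.0751) and with DESeq2 (adjusted p 0.0545). With library totals alone the differences from sham were 0.55 after ligation and 0.41 in the cell group.

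Insr, the insulin receptor, stood at 112, 111 and 108 CPM in sham, at 119, 123 and 125 in ligation and at 144, 132 and 139 in the cell group. The 3 groups did not overlap and stepped upwards from sham to ligation to the cell group. Insr was 0.33 above sham in the cell group (SE 0.0573, edgeR adjusted p 0.000112), and this was the firmest of its differences. The step from sham to ligation was 0.15 (edgeR adjusted p 0.0428) and lost its call in 14 of 19 alternative fits. Leaving out single libraries gave adjusted p-values (edgeR) of 0.0667, 0.0641 and 0.119 without sham replicate 1, 2 or 3, 0.0972 and 0.186 without ligation replicate 2 or 3, and 0.0533 and 0.0542 without cell replicate 1 or 3. The step from ligation to the cell group was 0.17 (interval 0.05 to 0.29 before adjustment, edgeR adjusted p 0.0598) and did not pass, except in limma-voom (0.17, adjusted p 0.0462). With library totals alone the step from sham to ligation was 0.34.

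Within a library, the ratio of Igf1r to Insr per kb does not depend on library scaling. It was 0.297, 0.268 and 0.295 in sham, at 0.339, 0.343 and 0.315 after ligation, and 0.253, 0.277 and 0.289 with cells. The ligation libraries were above all 6 others, while sham and cell libraries overlapped. This ratio was described and not tested.

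**Figure D2:**
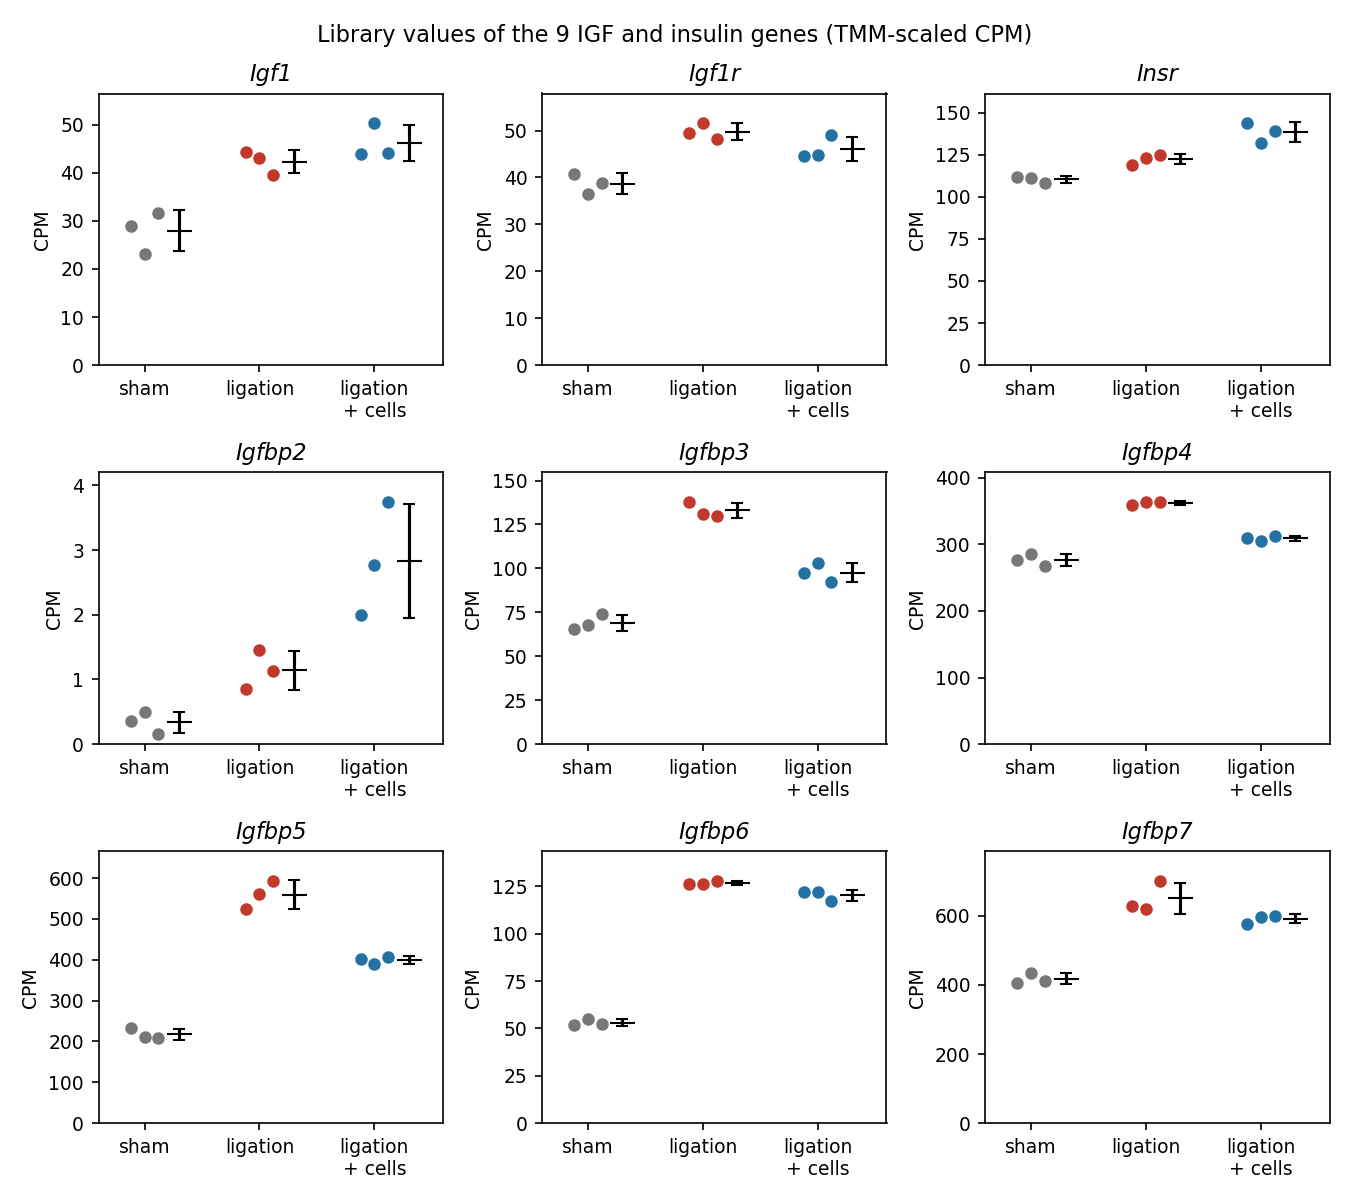
TMM-scaled CPM of each gene in every library (points, in replicate order within a group) with the group mean and SD (bars, n = 3), each panel starting at 0. All sham points lie below all ligation points in each of the 9 panels, and Igfbp3 to Igfbp7 show the cell group between sham and ligation. For Igfbp6 and Igfbp7 the difference between the cell group and ligation did not pass the test.

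Igfbp5 encodes a binding protein that also attaches to extracellular matrix. Its transcripts stood at 233, 211 and 209 CPM in sham, at 524, 560 and 594 in ligation and at 402, 389 and 408 in the cell group. The groups were far apart relative to their spread, with the cell group between the other two. Igfbp5 rose by 1.36 on the log2 scale after ligation (SE 0.0551, edgeR adjusted p 8.07e-14), and it fell by 0.49 from ligation to the cell group (SE 0.0534, edgeR adjusted p 2.26e-06). It remained 0.88 above sham with cells (edgeR adjusted p 7.02e-11).

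Igfbp3 encodes the main carrier of IGFs in blood. It stood at 65.5, 67.7 and 74.0 CPM in sham, at 138, 131 and 130 in ligation and at 97.2, 103 and 92.3 in the cell group. Again no groups overlapped and the cell group lay in the middle. The rise after ligation was 0.94 (SE 0.0665, edgeR adjusted p 4.71e-10), the difference from ligation to the cell group -0.45 (SE 0.0638, edgeR adjusted p 6.67e-05) and the cell group's excess over sham 0.50 (edgeR adjusted p 4.95e-06).

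Igfbp4, a binding protein mostly known to hold back IGF action, followed the same order with smaller steps. It stood at 276, 286 and 267 CPM in sham, at 359, 363 and 364 in ligation and at 309, 305 and 313 in the cell group. Its ligation libraries were within 5 CPM of each other and well above the rest. The log2 differences were 0.39 for ligation against sham (edgeR adjusted p 8.14e-07), -0.23 for the cell group against ligation (edgeR adjusted p 0.00205) and 0.16 for the cell group against sham (edgeR adjusted p 0.00716), the last being 0.32 with library totals alone.

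Igfbp6, a binding protein that prefers IGF-2, was well above sham with and without cells. It stood at 52.0, 55.0 and 52.1 CPM in sham, at 126, 126 and 128 in ligation and at 122, 122 and 117 in the cell group. The rise after ligation was 1.26 on the log2 scale (SE 0.0614, edgeR adjusted p 1.55e-12). The cell libraries lay just below the ligation libraries, and the difference of -0.07 (interval -0.19 to 0.04, edgeR adjusted p 0.481) did not pass. Against sham the cell group was 1.18 higher (edgeR adjusted p 3.50e-12).

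Igfbp7 stood at 405, 436 and 412 CPM in sham, at 629, 620 and 702 in ligation and at 577, 596 and 601 in the cell group. Ligation replicate 3 was the highest library by a margin. The rise after ligation was 0.64 (interval 0.53 to 0.74, edgeR adjusted p 2.27e-09) and the excess of the cell group over sham 0.50 (edgeR adjusted p 7.86e-08). From ligation to the cell group the difference was -0.14 (interval -0.24 to -0.03 before adjustment, edgeR adjusted p 0.0875). It did not pass, except with library totals alone (edgeR adjusted p 0.0458) and in limma-voom (adjusted p 0.0427). Without ligation replicate 3 it was -0.08 (edgeR adjusted p 0.416).

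Igfbp2, a binding protein abundant in fetal tissues, was near the limit of detection. It had 2, 3 and 1 counts in sham replicates 1 to 3, 4, 10 and 9 in ligation and 14, 20 and 26 in the cell group. The cell libraries were above all ligation libraries, which were above all sham libraries. Summed over the libraries of a group and scaled for depth, it was 3.52 times as high in ligation as in sham (exact 95% interval of the ratio 1.39 to 10.6, counting error only) and 8.48 times as high in the cell group as in sham (3.68 to 24.0). The cell group was 2.41 times ligation (1.47 to 4.09). By edgeR's test the adjusted p-values were 0.0293 for ligation against sham, 0.0505 for cells against ligation and 9.48e-05 for cells against sham. The first was lost without sham replicate 1 (edgeR adjusted p 0.0639) or 3 (0.117) and without ligation replicate 2 (0.104) or 3 (0.0639), and the second passed without cell replicate 1 (0.0459). With DESeq2 the first was lost as well (adjusted p 0.0676). Igfbp2 passed the filter on low counts through the cell group, and in a fit of sham and ligation libraries only it did not pass that filter, so its calls are no support for the counts of genes that were higher than sham.

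The comparison of the cell group with ligation asked what differs in ligated hearts that received cells. Igfbp3, Igfbp4 and Igfbp5 fell, none of the 9 genes rose, and 6 did not pass (edgeR, adjusted p under 0.05). Of all tested genes 9.87% passed in this comparison, 4.19% as higher and 5.69% as lower. Without Igfbp2, the median log2 difference was -0.12 over the other 8 genes, and 0.00 over all tested genes. Ranges did not overlap for 6 of these 8, against 27.2% of all tested genes. Since the ligation libraries enter both comparisons, the differences of ligation from sham and of the cell group from ligation are not independent.

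Against sham, all 9 genes were higher in the cell group, where 40.9% of all tested genes passed and 21.0% passed as higher. Igfbp2 entered this test through the group in which it is high, so its call and its fitted difference of 3.01 are no support here. Of the other 8 genes, 8 were higher, and none had a range that overlapped with sham, as for 49.8% of all tested genes. Their median log2 difference was 0.50, with -0.01 over all tested genes. The differences of these 8 ran from 0.16 for Igfbp4 through 0.26 for Igf1r, 0.33 for Insr and 0.88 for Igfbp5 to 1.18 for Igfbp6.

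**Figure D3:**
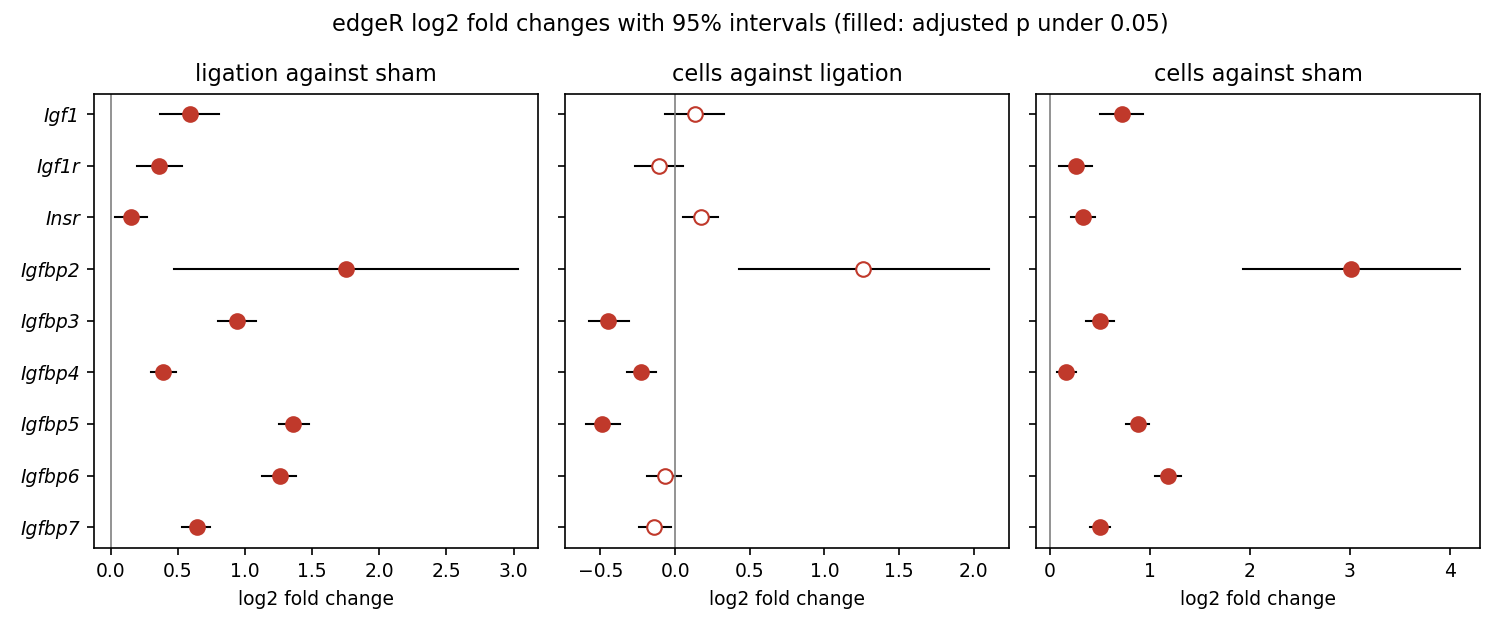
Log2 fold change of each gene (points) in the 3 comparisons with 95% intervals that are not adjusted for multiple testing (lines). Filled points have an edgeR adjusted p under 0.05: all 9 genes are filled and above 0 against sham, and only Igfbp3, Igfbp4 and Igfbp5 are filled, all below 0, for cells against ligation.

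The transcript levels of the 6 binding-protein genes were summed per kb to describe their make-up. The sum was 504, 532 and 507 CPM per kb in sham, against 846, 844 and 920 after ligation, and it was 756, 771 and 772 with cells. The 3 groups did not overlap. Igfbp7 made up 67.2% ± 0.680 (SD, n = 3) of the sum in sham, but 61.8% ± 1.23 after ligation and 63.8% ± 0.618 with cells. Igfbp4 took 12.2% ± 0.237 in sham and a smaller 9.44% ± 0.416 after ligation and 9.13% ± 0.146 with cells. The shares of Igfbp6 and Igfbp5 moved the other way. Igfbp6 took 9.27% ± 0.0286 in sham, but 13.1% ± 0.485 after ligation and 14.1% ± 0.470 with cells. Igfbp5 took 7.05% ± 0.572, 10.7% ± 0.380 and 8.68% ± 0.251 in the same order. Shares within a library do not depend on library scaling, and their differences were not tested.

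**Figure D4:**
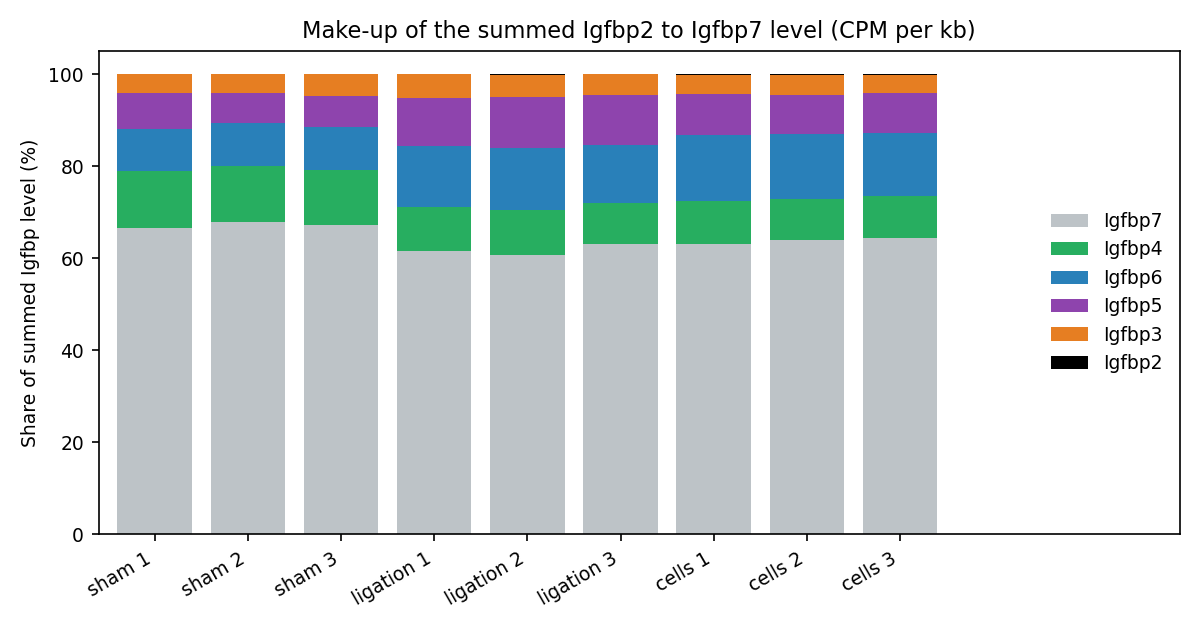
Share of each binding-protein gene in the summed Igfbp2 to Igfbp7 level (CPM per kb) of every library, stacked to 100%. Igfbp7 takes 60.7% to 67.8% in each library, and the share of Igfbp4 is larger in the 3 sham libraries than in the 6 others.

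Of 8 genes for other ligands, receptors and carriers, 2 could be tested, Igf2 and Igf2r. Ins1, Ins2 and Igfbp1 had 0 counts in all 9 libraries, where 3 counts would be 0.375 to 0.639 CPM, and Insrr, Igfbpl1 and Igfals, with 3, 28 and 57 counts over all libraries, did not pass the filter. Igfbp1 is the neighbour of the well-expressed Igfbp3. Igf2r, which removes IGF-2 from the cell surface, rose by 0.30 after ligation (edgeR adjusted p 0.000247), from a mean of 146 to 179 CPM, and was 0.40 above sham in the cell group (edgeR adjusted p 7.71e-06). Igf2 stood at 2.67, 2.14 and 2.54 CPM in sham, at a mean of 0.786 ± 0.429 in ligation (SD, n = 3) and at 0.709, 0.277 and 0.432 in the cell group. The fitted differences from sham were -1.73 on the log2 scale after ligation (edgeR adjusted p 0.00520) and -2.33 in the cell group (edgeR adjusted p 0.000650). Igf2 passed the filter on low counts only through the 3 sham libraries, where it is high, so these calls are no support for a fall. Of Igf2's exon bases 64.5% are shared with other annotated genes, so its counts are uncertain.

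Proteases that cut IGF-binding proteins, and the stanniocalcins that inhibit some of them, were counted over a list of 9 genes, of which 8 were tested. After ligation 6 were higher than sham, where 20.1% of all tested genes were, and in the cell group 5, where 21.0% of all tested genes were. None passed between the cell group and ligation at an adjusted p under 0.05 in edgeR, and 9.87% of all tested genes did. Pappa2, which cuts Igfbp3 and Igfbp5, stood at 0.178, 0.494 and 0.317 CPM in sham, at 1.92, 1.45 and 2.38 in ligation and at 1.56, 2.64 and 0.288 in the cell group. Cell replicate 3 was thus at the sham level. The fitted difference after ligation was 2.47 (SE 0.689, edgeR adjusted p 0.00732), and the call of the cell group against sham (2.11, edgeR adjusted p 0.0221) was lost without sham replicate 1 (0.0782) or 3 (0.0653), without cell replicate 2 (0.164) and in limma-voom (0.115). Without cell replicate 2 that difference was 1.43. Like Igfbp2, Pappa2 did not pass the filter in fits of sham with only 1 of the other groups, so its calls are no support for the counts of proteases above sham. Pappa and Adam12 reached the level that the filter asks for in 0 and 2 of the 3 sham libraries and in all libraries of the other groups, so they too entered the test through the groups where they are high. Apart from Pappa, Pappa2 and Adam12, the list genes that passed as higher after ligation were Adamts1, Stc1 and Stc2. In the cell group they were Adamts1 and Stc1, while Htra1 and Htra3 passed in neither comparison with sham.

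Pappa, the protease best known for cutting Igfbp4, stood at 1.42, 0.494 and 0.159 CPM in sham, at 3.84, 2.89 and 2.50 in ligation and at 3.26, 2.91 and 4.18 in the cell group. All libraries of both ligated groups were above all sham libraries, at few counts per library. Its fitted differences from sham were 2.13 after ligation (SE 0.491, edgeR adjusted p 0.00163) and 2.33 in the cell group (edgeR adjusted p 0.000503), and given its way through the filter they are no support for the counts above. Without sham replicate 1, the highest sham library, these differences were 3.14 and 3.34, and without sham replicate 3, the lowest, 1.65 and 1.85. The inhibitor Stc1, which reached the filter's level in all 9 libraries, rose by 1.40 after ligation (edgeR adjusted p 6.18e-06), and the fitted difference of Adam12 was 1.40 (edgeR adjusted p 0.00162).

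Downstream of the receptors, 35 of 36 listed signalling genes were tested. After ligation 19 rose, 4 fell and 12 did not pass, where 20.1% of all tested genes were higher and 18.0% lower. Between the cell group and ligation 2 were higher, 2 lower and 31 did not pass, a share near the 9.87% of all tested genes that passed. Sh2b2, an adaptor of the insulin receptor, stood at 1.60, 1.15 and 2.06 CPM in sham, at 5.54, 6.08 and 5.50 in ligation and at 4.40, 4.86 and 3.75 in the cell group. Sham libraries were well apart from the rest, and the fitted difference after ligation was 1.81 (SE 0.300, edgeR adjusted p 6.10e-05). Only 1 of the 3 sham libraries was at the level that the filter asks for, and all libraries of the other groups were. Sh2b2 thus entered the test through the groups where it is high, so its call is no support for the count of genes that rose.

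Irs2, a docking protein that carries the signal from both receptors, rose in steps. It stood at 5.34, 7.25 and 6.67 CPM in sham, at 11.7, 13.7 and 17.0 in ligation and at 25.2, 21.2 and 20.6 in the cell group. Groups did not overlap. The differences were 1.16 for ligation against sham (edgeR adjusted p 2.90e-05), 0.63 for the cell group against ligation (SE 0.146, edgeR adjusted p 0.00671) and 1.79 for the cell group against sham (edgeR adjusted p 3.21e-08). Irs2 and Insr stood in the same order over the groups, although the Insr step with cells did not pass.

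Slc2a4, the insulin-responsive glucose transporter, stood at 365, 379 and 353 CPM in sham, at 267, 293 and 265 in ligation and at 307, 301 and 301 in the cell group. It fell by 0.41 after ligation (SE 0.0506, edgeR adjusted p 1.41e-06), and with library totals alone the difference was -0.225. With cells it differed from sham by -0.27 (edgeR adjusted p 0.000189), and by -0.11 (edgeR adjusted p 0.0752) with library totals alone. Tbc1d4, which links Akt to that transporter's movement, stood at 47.5, 48.1 and 52.9 CPM in sham, at 45.4, 38.3 and 39.3 in ligation and at 49.8, 54.5 and 51.9 in the cell group. It fell by 0.28 after ligation (edgeR adjusted p 0.0104) and was 0.36 higher with cells than in ligation (edgeR adjusted p 0.00664). The fall was lost without sham replicate 3 (edgeR adjusted p 0.0615), without ligation replicate 2 (0.0626) and with library totals alone (0.368), and the rise was lost without ligation replicate 2 (0.0527).

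Inpp5d, a lipid phosphatase of blood cells that opposes phosphoinositide 3-kinase, stood at 17.1, 19.3 and 14.9 CPM in sham, at 16.2, 20.4 and 20.4 in ligation and at 10.6, 10.7 and 10.2 in the cell group. It fell by 0.87 from ligation to the cell group (SE 0.141, edgeR adjusted p 0.000271), and macrophage markers were lower in the same libraries. Pik3r1, a regulatory subunit of phosphoinositide 3-kinase, fell by 0.23 in that comparison (edgeR adjusted p 0.0255). That call was lost without ligation replicate 1 (0.0676) or 3 (0.0838) and without cell replicate 1 (0.116), 2 (0.0538) or 3 (0.0527).

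Foxo3, the transcription factor named in the cells' label and a target of Akt, stood at 73.3, 71.5 and 65.4 CPM in sham, at 82.7, 84.1 and 81.6 in ligation and at 73.0, 78.5 and 73.3 in the cell group. It rose by 0.24 after ligation (SE 0.0662, edgeR adjusted p 0.00648), and the cell libraries, all below the ligation libraries, differed from them by -0.14 (edgeR adjusted p 0.192), which did not pass. Enpp1, an ectoenzyme reported to bind the insulin receptor, stood at 6.94, 9.56 and 8.25 CPM in sham, at 27.3, 23.0 and 32.6 in ligation and at 29.4, 26.2 and 27.8 in the cell group. Its rise after ligation was 1.74 (SE 0.153, edgeR adjusted p 1.29e-08), and ligation and cell libraries overlapped.

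**Figure D5:**
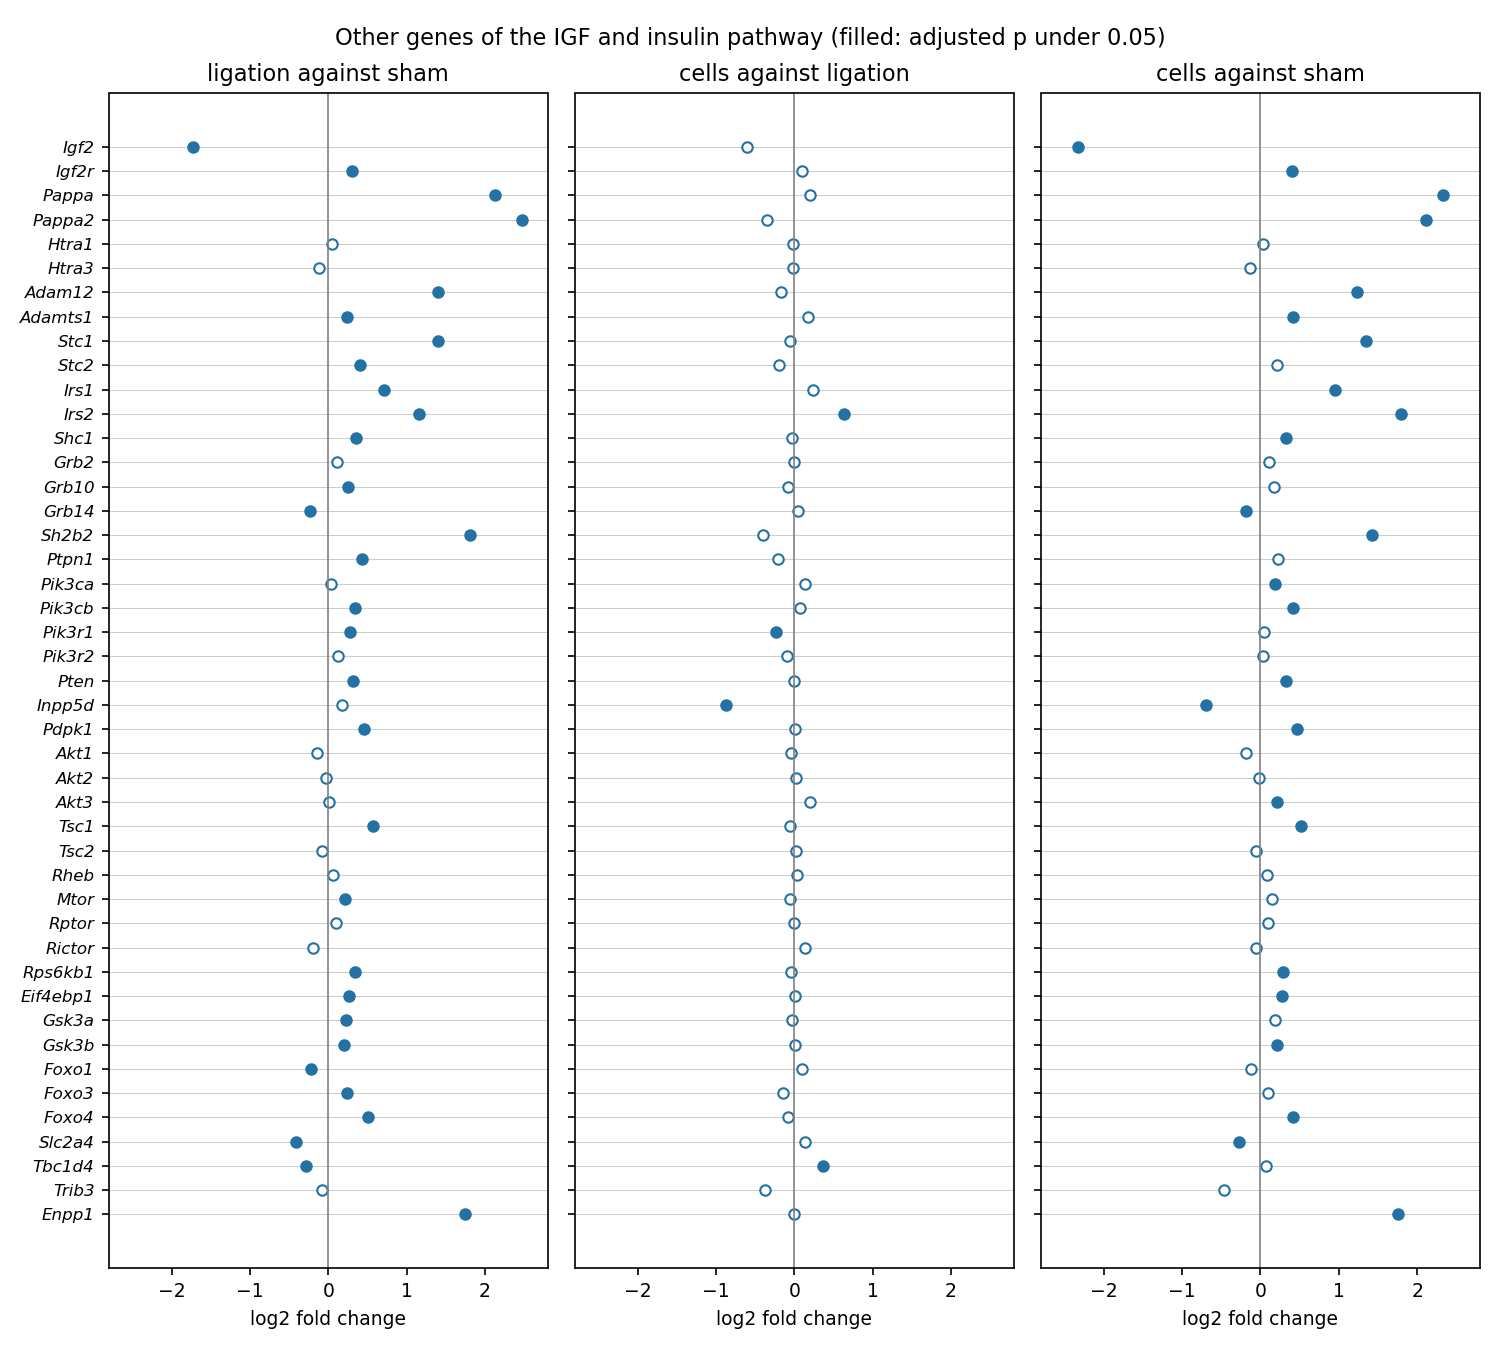
Log2 fold change of the 45 other tested pathway genes in the 3 comparisons, filled where the edgeR adjusted p is under 0.05. Filled points lie mostly to the right of 0 against sham (26 of 31 for ligation, 21 of 25 for cells). Of all genes past 0.05 in these comparisons, 52.7% and 51.2% were higher. Pappa, Pappa2, Adam12 and Sh2b2 passed the filter on low counts through the ligated groups, where they are high. Igf2 passed it through sham, and the points of these genes are no support for the counts. For cells against ligation 4 points are filled, where 9.87% of all tested genes passed.

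Genes with the most similar course over the 9 libraries were sought by the root mean square difference in log2 CPM after centring each gene, as a description. Igfbp6 was closest to Col1a2 (0.0339) and Col5a2 (0.0473), chains of fibrillar collagens. Igfbp5 was closest to Plvap (0.0843), an endothelial membrane protein, and Prg4 (0.0907), a lubricating proteoglycan. Igfbp3 was closest to Per2 (0.0532), a clock component, and Slco2a1 (0.0954), a prostaglandin transporter. Igfbp4 was closest to Tfb2m (0.0253) and Arf3 (0.0344), Igfbp7 to Itsn1 (0.0381) and Gas6 (0.0400), and Igf1 to Msrb3 (0.0622) and Ank3 (0.0626). Igf1r was nearest to Larp1 (0.0479) and Dapk1 (0.0480), Insr to Ctnnb1 (0.0295) and March6 (0.0346), and Igfbp2, with its few counts, to Dok5 (0.310) and Orm1 (0.315). Among the 9 genes themselves the closest pair was Igf1r and Igfbp4, at 0.0844.

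Markers of cell types differed between the same groups, some lists upwards and others downwards after ligation. Of all tested genes 20.1% were higher and 18.0% lower after ligation than in sham. With cells 4.19% were higher and 5.69% lower than in ligation. The 9 fibroblast markers summed to 2514 to 2576 CPM in sham, 4485 to 4568 after ligation and 4205 to 4317 with cells, with 6 higher and 1 lower after ligation and 2 lower with cells than in ligation. After ligation Postn, Col3a1, Col1a2, Col1a1, Lum and Dcn rose by 2.34, 1.38, 1.29, 1.18, 0.30 and 0.23, Pdgfra fell by 0.20, and Tcf21 and Dpt, at 0.08 and -0.09, did not pass (edgeR, adjusted p under 0.05). The 8 macrophage markers summed to 652 to 703 CPM in sham, 1174 to 1208 after ligation and 479 to 493 with cells, where all 8 were lower than in ligation.

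The 6 mesothelial and epicardial markers summed to 33.3 to 44.7 CPM in sham, 217 to 252 in ligation and 176 to 182 with cells. After ligation 6 were higher, where 20.1% of all tested genes were, and 3 were lower with cells than in ligation. Krt8 and Lrrn4 reached the filter's level in 1 and 2 of the 3 sham libraries and in all libraries of the other groups. Their rises are therefore no support for the count of markers above sham. All 8 endothelial markers were lower after ligation than in sham, summing to 1670 to 1753 CPM against 2446 to 2563, and to 1784 to 1822 with cells. Smooth muscle and pericyte markers summed to 1814 to 1869 CPM in sham, 1312 to 1338 in ligation and 1311 to 1344 with cells, and of 8 tested 5 were lower and 1, Cspg4, was higher after ligation. The 8 cardiomyocyte markers summed to 58885 to 60816 CPM in sham, 45854 to 48370 in ligation and 45705 to 46740 with cells, and 6 were lower and 1, Ryr2, was higher after ligation. The skeletal muscle markers summed to 1562 to 1632, 1847 to 1915 and 2454 to 2518 CPM. Acta1, which heart also expresses, made up much of that last sum, with means of 948, 1258 and 1838 CPM. Of the 6 skeletal muscle markers tested, Acta1 was higher with cells than in ligation and Tnnt3, Tnni2 and Pvalb were lower in edgeR, these last at means of at most 3.18 CPM in any group and 75 to 96 counts over all libraries. Tnnt3 and Pvalb were highest in ligation and near the floor elsewhere. Tnni2 also had its highest mean in ligation, and reached the filter's level in 2 sham libraries and 0 cell libraries. The calls of Tnnt3, Pvalb and Tnni2 are therefore no support for a direction of the list. No marker of the lists was at 0 in a whole group except 1 skeletal muscle marker in sham and 1 in the cell group. The part of these cell types in the results on the 9 genes was not tested.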

How the data were processed

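The deposited files hold raw read counts per gene for 9 libraries, and no normalization is seen in the values. Per the labels' protocols, total RNA was taken with TRIzol and libraries were made with a NEBNext Ultra RNA kit. Per the submitters' processing notes the genome build was mm10; aligner, counter, strand setting and annotation release are not given in the sources used here. Each file ends in lines named as htseq-count names them, which stayed out of library sizes: reads outside genes (4.14% to 4.91%) and ambiguous reads (8.09% to 8.72%).

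Symbols were matched for 53360 of 53465 IDs. Genes were kept with filterByExpr, scaled with TMM factors and fitted in 1 model over all libraries (edgeR 4.0.16, R 4.3.3, glmQLFit and glmQLFTest, 6 residual degrees of freedom). SE is the log2 fold change divided by the square root of F, and tests are two-sided. The threshold is an adjusted p of 0.05. Alternatives used library totals, DESeq2 1.42.0 size factors and Wald test, limma 3.58.1 voom, other filters, 2-group fits, a replicate block and left-out libraries. Summing libraries with the same header stem was added after seeing the data. The fit was tested on simulated data.

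The 9 genes and all lists were chosen with earlier results of these data known. Pathway genes were named, from those past 0.05 and averaging 1 CPM or more, as the top 3 increases and top 3 decreases of each comparison; the others named (Igf2r, Adam12, Stc1, Foxo3, Enpp1, unexpressed genes and markers) were chosen after their values were seen. Likeness names the 2 closest genes, averaging 1 CPM or more, with a prior count of 2. Figures were drawn with matplotlib 3.10.9.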

Additional observations from a re-analysis of the deposited data

How the results depend on the processing

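Over 19 alternative fits no log2 fold change of the 9 genes or of the pathway genes named by rule changed sign. For Igfbp2 in ligation against sham and Pappa2 in both comparisons with sham there were 18, since neither passed the filter there in the fit of only the groups compared. The 9 genes past 0.05 in ligation against sham numbered 7 to 9 and in the cell group against sham 8 to 9. Over the same fits 20.9% to 45.7% and 22.2% to 45.6% of all genes passed in these comparisons. In the cell group against ligation 3 to 4 passed without 1 library and 5 with limma-voom, where 6.75% to 9.91% and 10.6% of all genes passed. Of the 9 genes 1 passed as higher with limma-voom and 1 with DESeq2 size factors in edgeR, and 0 to 1 in fits without 1 library. With library totals alone the median log2 fold change of all genes was 0.20 for ligation and 0.15 for cells, each against sham, and -0.03 between these, and the higher share of genes past 0.05 became 78.7%, 73.1% and 32.0% in the same order, in place of 52.7%, 51.2% and 42.4%. That scaling gave 2 lower pathway genes in ligation against sham, in place of 5, and 33 higher and 2 lower in cells against sham, in place of 21 and 4. Lower pathway genes in cells against sham numbered 7 with limma-voom and 7 without mitochondrially encoded genes. Fits without 1 library gave 3 to 5 lower pathway genes in ligation against sham, 1 to 2 in cells against ligation and 4 to 7 in cells against sham. The cause was not tested. Summing libraries with the same header stem left 7, 3 and 9 of the 9 genes past 0.05, where 32.5%, 7.83% and 38.5% of all genes passed, with Insr (edgeR adjusted p 0.157) and Igfbp2 (0.0608) lost in ligation against sham.

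With the replicate number as a block 8, 3 and 9 of the 9 genes passed, Insr being lost in ligation against sham (edgeR adjusted p 0.0600), and 29, 4 and 25 pathway genes, where 37.1%, 8.90% and 39.9% of all genes passed. The shared numbers did not pair the libraries: deviations from group means correlated at -0.123 to 0.144 across genes, which are not independent replicates, over 0.1 in 1 of 9 pairs, and 5 of 18 best matches had the same number. Depth limits Igfbp2, Pappa, Pappa2 and Igf2, which have few counts per library.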
